A study of Mus musculus with 4 samples.

Results

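The 10 genes described here encode amino acid carriers of the plasma membrane: the Slc7 genes Slc7a1, Slc7a2, Slc7a3, Slc7a5, Slc7a7, Slc7a8 and Slc7a11, their partner subunit Slc3a2, and the neutral amino acid carriers Slc1a5 and Slc38a2. They were taken by gene name from a list drawn up with earlier results of these data known, and are 10 of the 26265 named genes on the array. They are read by 12 of its 39429 non-control probes. All 10 were among the 17178 genes bright enough to be tested.

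RNA came from pancreatic islets of C57BL/6 mice aged 8 weeks, held for 24 h in RPMI1640 medium with 5.6 mM glucose. In the GKA group the medium held 30 µM of a glucokinase activator, a small molecule that speeds the first step of glucose use in beta cells. In the vehicle group it held the solvent DMSO without the activator. Each group had 2 samples, each on its own 1-colour Agilent array. The labels do not say whether they came from separate mice or cultures, so each p-value reflects the scatter of these samples alone. That scatter may be technical. The test used below, limma, pools a gene's own scatter (2 degrees of freedom) with that of all tested genes (3.33 prior degrees of freedom). The SE and p of a gene therefore do not rest on its own values alone.

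Cells import amino acids through families of carriers that differ in substrate. The cationic carriers encoded by Slc7a1, Slc7a2 and Slc7a3 take up arginine, lysine and ornithine and work as single proteins. The proteins of Slc7a5, Slc7a7, Slc7a8 and Slc7a11 are light chains that reach the cell surface joined to the heavy chain encoded by Slc3a2, and they exchange one amino acid for another. In beta cells, arginine, leucine and glutamine are known to affect insulin secretion. Several of these genes are known targets of ATF4, the transcription factor of the amino acid and stress response, which binds an element of the form TGATGNAA together with a C/EBP partner.

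Promoter windows, from 250 bases before to 50 bases after a transcript start, were available from RefSeq (build GRCm38.p6) for 6 of the 10 members, with 11 windows in all. Slc7a2, Slc7a3, Slc7a5 and Slc1a5 had none. The letters TGATGNAA, searched on both strands, occurred in windows of 2 members, Slc7a11 and Slc7a7, whose first 250 bases are shown because these were the members with a match. Capitals mark the matches lying whole in the printed stretch. The stretches are chr3:50443614-50443863 for Slc7a11 and chr14:54417945-54418194 for Slc7a7, both on the minus strand and written 5′ to 3′ along the gene.
Slc7a11: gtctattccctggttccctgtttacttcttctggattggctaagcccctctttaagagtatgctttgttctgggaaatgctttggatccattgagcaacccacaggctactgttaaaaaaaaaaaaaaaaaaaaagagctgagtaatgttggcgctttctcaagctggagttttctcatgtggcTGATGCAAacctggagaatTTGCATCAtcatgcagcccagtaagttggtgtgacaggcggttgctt
Slc7a7: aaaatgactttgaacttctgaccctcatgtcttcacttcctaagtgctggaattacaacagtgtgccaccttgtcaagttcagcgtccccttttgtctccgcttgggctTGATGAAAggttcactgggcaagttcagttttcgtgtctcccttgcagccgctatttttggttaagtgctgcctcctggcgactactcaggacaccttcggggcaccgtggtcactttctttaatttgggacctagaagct
The Slc7a11 window held 2 matches, one that starts 66 bases before the transcript start on the gene's strand and one that starts 47 bases before it on the opposite strand. Slc7a7 had 5 windows, and the most upstream of them, shown here, held a match 141 bases before the start and another that begins on the last printed base. A neighbouring window of Slc7a7 overlaps that last match, and its other 3 windows held none. Of all 32851 windows in the table, 3.97% held at least 1 match and 0.07% held 2 or more, and 4.51% of the 27025 genes had a match in any window. A second motif, the antioxidant response element TGACNNNGC bound by NRF2, occurred in 12.4% of all windows. Among the members it was found in windows of Slc7a1, 11 bases before the start on the opposite strand, and Slc38a2, 27 bases before the start. Neither motif was found in the windows of Slc7a8 and Slc3a2. A match is a run of letters and does not show binding.

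The 75th percentile of probe intensity was 557 and 598 on the GKA arrays and 751 and 755 on the vehicle arrays, and each array was scaled to it. Between 59.7% and 63.5% of probes were well above background, and no spot was saturated. Log2 values correlated at 0.996 between the GKA arrays, at 0.995 between the vehicle arrays, and at 0.979 to 0.984 across groups. All 4 arrays lay on 1 slide, with the GKA samples in positions 3 and 4 and the vehicle samples in positions 1 and 2, so position and treatment cannot be told apart. The islet label was borne out by hormone-cell markers, with all 11 beta cell and all 8 alpha cell markers tested. Their linear scaled signals summed to 1460 and 1420 on the GKA arrays against 1170 and 1160 on the vehicle arrays for beta cells, and to 577 and 522 against 463 and 413 for alpha cells. The brightest genes weigh most in such sums. Of them, Ins1, Ins2, Iapp and Gcg did not pass the test used below (log2 differences of 0.31, 0.25, 0.27 and 0.31). Without scaling between arrays they were at -0.07, -0.13, -0.11 and -0.08. Of the beta cell markers 3 were called higher and 0 lower, and of the alpha cell markers 1 and 0. Over all tested genes, 9.11% were called higher and 8.01% lower. Of 12 acinar markers 6 were bright enough to test, with sums of 4.19 and 2.89 on the GKA arrays against 2.13 and 2.02 on the vehicle arrays. In whole islets, fewer cells of a type and less RNA per cell cannot be told apart.

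Slc7a3 and Slc7a11 were higher in GKA islets, no member was lower, and the other 8 did not pass the test (limma, Benjamini-Hochberg adjusted p under 0.05 over all genes tested). The 2 that were higher are set against 9.11% of all tested genes called higher, and the 0 that were lower against 8.01% called lower. The median log2 difference, GKA minus vehicle, was -0.10 over the members and -0.01 over all genes. For 6 members the 2 GKA values lay wholly outside the 2 vehicle values, against 65.9% of all tested genes. Of these, 4 lay higher, against 32.4% of all genes, and 2 lay lower, against 33.5%. Counts this close to the shares over all genes are no result about the members. The count of lower members depended on the scaling: 6 were called lower without scaling between arrays, where 44.6% of all genes were, and 5 with spike-in scaling, where 44.1% of all genes were.

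**Figure D1:**
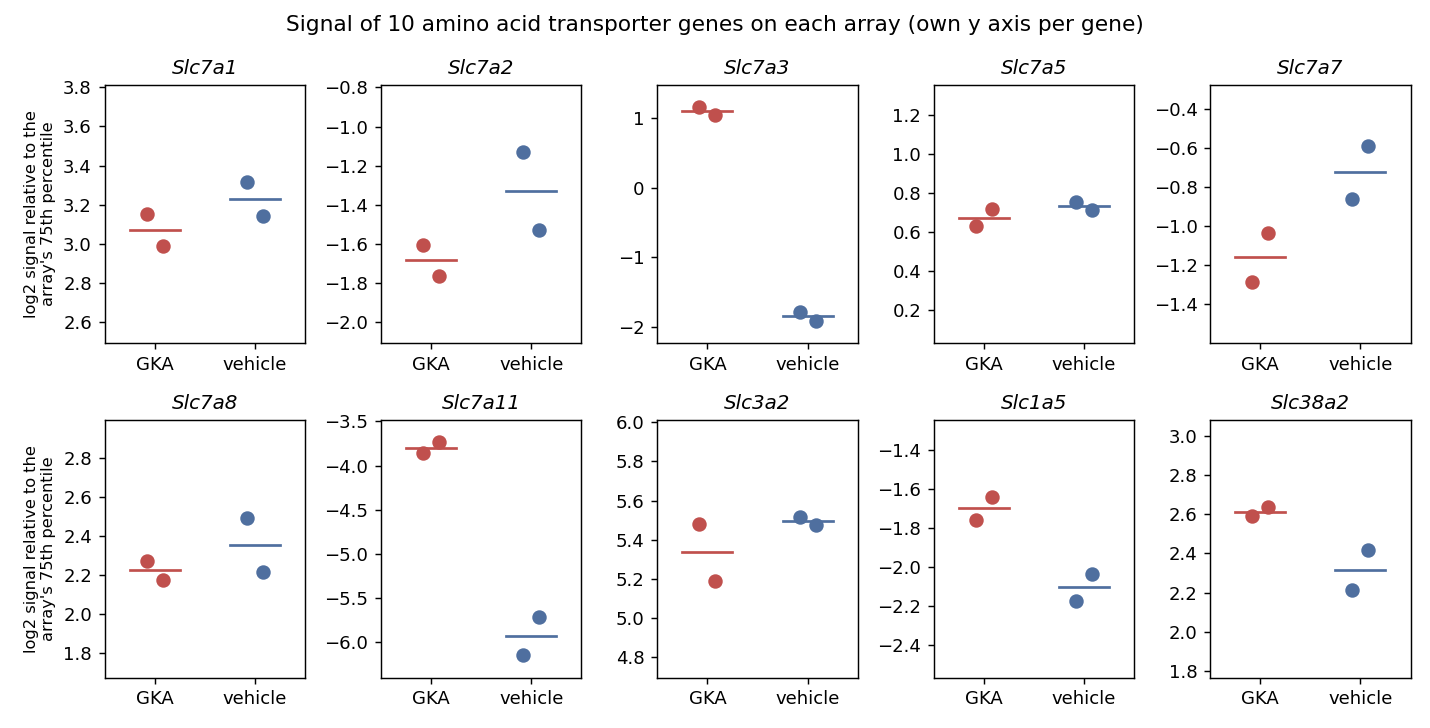
Scaled log2 signal (log2 of processed intensity minus the array's 75th percentile) of each of the 10 members on the 2 GKA arrays and the 2 vehicle arrays, 1 point per array, with bars at group means and a separate y axis for each gene. Slc7a3 and Slc7a11 stand apart between the groups, while the points of Slc7a1, Slc7a5, Slc7a8 and Slc3a2 overlap.

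The cationic carriers moved unequally. Slc7a3, the cationic carrier best known from the brain, had scaled log2 signals of 1.16 and 1.05 on the GKA arrays, against -1.79 and -1.91 on the vehicle arrays (probe at chrX:98274644-98274703 on the minus strand, build mm9). Both GKA values lay above both vehicle values, by far more than the spread within either group. The log2 difference was 2.96 ± 0.12 (SE, n = 2 each), a 7.76-fold higher level in GKA islets (limma adjusted p = 0.00249), larger in size than 99.8% of the tested genes. The processed intensities were 1242 and 1238 in GKA islets and 217 and 201 in vehicle islets, well above background on all 4 arrays.

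Slc7a1, the widely expressed arginine carrier, had scaled log2 signals of 3.15 and 2.99 in GKA islets, against 3.31 and 3.14 in vehicle islets. The groups overlapped, and the log2 difference was -0.16 ± 0.13 (95% interval -0.49 to 0.17, limma adjusted p = 0.436). Slc7a2, the carrier known for its induction in macrophages and liver, had -1.60 and -1.76 in GKA islets, against -1.13 and -1.53 in vehicle islets. Both GKA values lay below both vehicle values, but the difference of -0.35 ± 0.17 did not pass (95% interval -0.78 to 0.08, limma adjusted p = 0.201). On each array the deviation of Slc7a3 from its vehicle mean can be set against that of Slc7a1 without any scaling, and this within-array difference was 3.09 and 3.14 in GKA islets, against -0.03 and 0.03 in vehicle islets. Set against Slc7a2 in the same way, Slc7a3 moved by 3.31 on the log2 scale. The difference between Slc7a3 and the other cationic carriers therefore does not rest on the scaling.

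By the root mean square distance of deviations from the 4-array mean, the naming rule took Gm10639, Abca4 and Sgcd as the genes most like Slc7a3. Each was well above background on both GKA arrays and on neither vehicle array, so their distances and order carry no meaning. Only bounds can be given, against the lowest signal well above background on each vehicle array. Where a gene's own vehicle value was higher, that value was used, as for Sgcd on vehicle array 2 (-5.92 against -5.96). That lowest signal is therefore not a strict detection limit. Gm10639 was at least 2.23-fold higher, Abca4 at least 1.73-fold higher and Sgcd at least 7.5-fold higher in GKA islets. Among genes well above background on all 4 arrays, Dclk1 and Fam46a, named after their values were seen, lay nearest, at distances of 0.121 and 0.130 log2 units, and were 8.77-fold and 8.03-fold higher in GKA islets. With 4 arrays in 2 groups, genes with a like difference between the groups lie near each other by construction.

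Among the light chains, Slc7a11 was called higher in GKA islets. It encodes the cystine and glutamate exchanger, which supplies cysteine for glutathione. Its scaled log2 signals were -3.86 and -3.73 on the GKA arrays, against -6.15 and -5.71 on the vehicle arrays (probe at chr3:50169700-50169759, minus strand, mm9), with no overlap. The log2 difference was 2.13 ± 0.18 (SE, n = 2 each), 4.39-fold higher in GKA islets (limma adjusted p = 0.00518). The signal was dim: intensities were 38.4 and 45.0 in GKA islets and 10.6 and 14.4 in vehicle islets, and the probe was well above background on both GKA arrays but on 1 of the 2 vehicle arrays, so it passed the brightness filter through the GKA group. Its value on vehicle array 1 lay under the lowest signal well above background there (-5.91), and the fold, SE and p rest in part on it. Another background correction, normexp, adds an offset of 50 to each intensity, which draws the log2 differences of dim probes toward 0. With normexp the log2 difference was 0.81, which the offset lowers by construction. When signal was required on all arrays the gene was not tested, so the size of the difference is uncertain.

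Slc7a5, the carrier of leucine and other large neutral amino acids, showed no detectable difference. Its brighter probe had 0.63 and 0.72 in GKA islets, against 0.76 and 0.72 in vehicle islets, with overlap and a log2 difference of -0.06 ± 0.11 (95% interval -0.35 to 0.23, limma adjusted p = 0.734). A second probe gave a log2 difference of -0.11. Slc7a8, a related carrier of neutral amino acids, had 2.27 and 2.17 in GKA islets, against 2.49 and 2.21 in vehicle islets, and a log2 difference of -0.13 ± 0.14 (95% interval -0.49 to 0.23, limma adjusted p = 0.547). Its probe was spotted 10 times on each array, and the SD among spots was 0.05 and 0.09 on the GKA arrays and 0.06 and 0.04 on the vehicle arrays.

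Slc7a7, a light chain that exports cationic for neutral amino acids and is known from kidney, gut and macrophages, had -1.29 and -1.04 in GKA islets, against -0.86 and -0.59 in vehicle islets. Both GKA values lay below both vehicle values. The log2 difference was -0.44 ± 0.16, 1.35-fold lower in GKA islets, and did not pass over all genes (95% interval -0.83 to -0.04, limma adjusted p = 0.115). Of 16 leukocyte markers tested, 5 were called lower, 1 higher and 10 did not pass (8.01% and 9.11% of all genes were called lower and higher), with a median log2 difference of -0.50 and summed signals of 23.8 and 21.4 on the GKA arrays, against 28.2 and 29.4 on the vehicle arrays. Those called lower were the lysozymes Lyz2 and Lyz1, with log2 differences of -2.14 and -1.63 (-0.78 and -1.02 with normexp), Aif1 (-1.56), Emr1 (-0.79, or -0.31 with normexp) and Ptprc (-0.46, or 0.05 with normexp). The normexp values of dim probes are drawn toward 0 by its offset. Lyz2 was well above background on 1 of the 2 GKA arrays. Cd14 was called higher (1.32), and the macrophage markers Cd68 (0.39), Itgam (0.41) and Csf1r (0.08) did not pass. The rest of the list, which did not pass either, had values below 0. These were Tyrobp (-0.70), H2-Aa (-0.63), Cd74 (-0.52), Fcer1g (-0.51), Ctss (-0.49), H2-Ab1 (-0.40) and Laptm5 (-0.28). The part of leukocytes in the Slc7a7 value was not tested.

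Slc3a2, the heavy chain shared by these carriers, had scaled log2 signals of 5.48 and 5.19 in GKA islets, against 5.52 and 5.48 in vehicle islets. The groups overlapped, and the log2 difference was -0.16 ± 0.14 (95% interval -0.52 to 0.20, limma adjusted p = 0.457). Within each array, the deviation of Slc7a11 relative to that of Slc3a2 was 2.09 and 2.50 in GKA islets, against -0.24 and 0.24 in vehicle islets, a comparison that includes the dim Slc7a11 value on vehicle array 1. The same comparison gave differences of 0.10 for Slc7a5, 0.03 for Slc7a8 and -0.27 for Slc7a7.

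**Figure D2:**
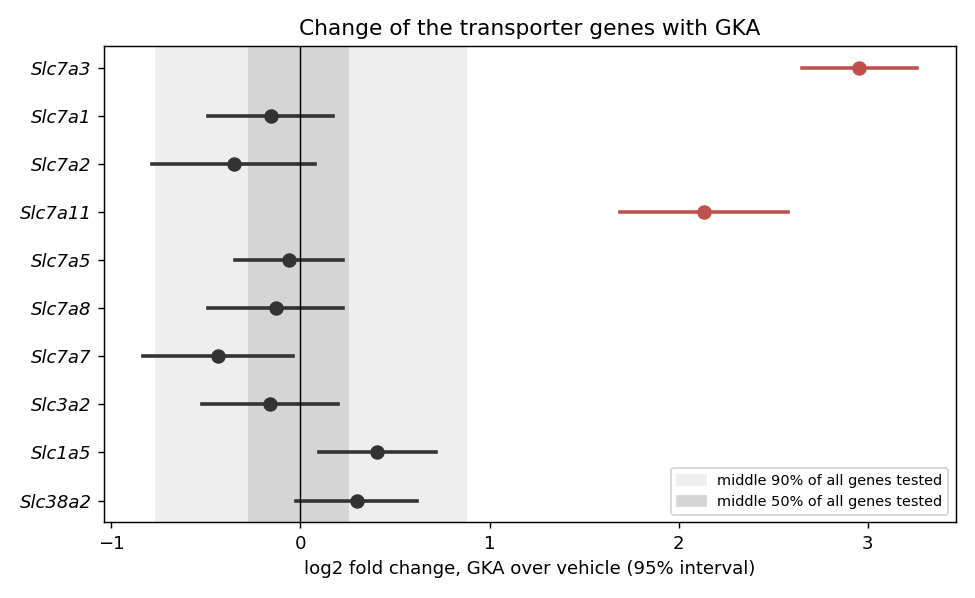
Log2 difference, GKA minus vehicle, of the 10 members with 95% intervals from limma. The intervals of Slc7a3 (2.65 to 3.26) and Slc7a11 (1.69 to 2.58) lie far above 0, and the other 8 lie between -0.83 and 0.71. The interval of Slc7a11 rests in part on a vehicle value too dim to be well above background, so its size is uncertain.

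The neutral amino acid carriers were both somewhat higher in value without passing. Slc1a5, the glutamine exchanger, had -1.76 and -1.64 in GKA islets, against -2.17 and -2.04 in vehicle islets. Both GKA values lay above both vehicle values, with a log2 difference of 0.41 ± 0.12, 1.32-fold (95% interval 0.10 to 0.71, limma adjusted p = 0.0786). A second probe of the gene gave a log2 difference of 0.32. Slc38a2, the sodium-coupled carrier of small neutral amino acids known to be induced by amino acid withdrawal, had 2.59 and 2.64 in GKA islets, against 2.21 and 2.42 in vehicle islets. There was no overlap, and the log2 difference was 0.30 ± 0.13 (95% interval -0.02 to 0.62, limma adjusted p = 0.16).

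The small differences depended on the scaling. Without scaling between arrays the median log2 difference of all genes was -0.40, and with scaling to spike-in controls it was -0.56. Slc1a5 had log2 differences of 0.02 and -0.14 under these settings, and Slc38a2 had -0.09 and -0.25. Slc7a1, Slc7a2, Slc7a7, Slc7a8 and Slc3a2 were called lower under both settings, and Slc7a5 without scaling. Slc7a2 had -0.74 and -0.90, and Slc7a7 had -0.82 and -0.98. Slc7a3 (2.57 and 2.41) and Slc7a11 (1.75 and 1.59) stayed higher. With spike-in scaling the fit gave every member the same SE (0.27), so the calls under it do not use a gene's own scatter. The authors' deposited table, whose values were not scaled between arrays, gives GKA over control ratios of 5.94 for Slc7a3 and 3.33 for Slc7a11. These ratios come from the same array intensities, so they repeat the unscaled result and are no second measurement. The Slc7a11 ratio divides by dim vehicle values. In the authors' deposited table the other members' probes have ratios between 0.568 for Slc7a7 and 1.02 for Slc1a5.

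**Figure D3:**
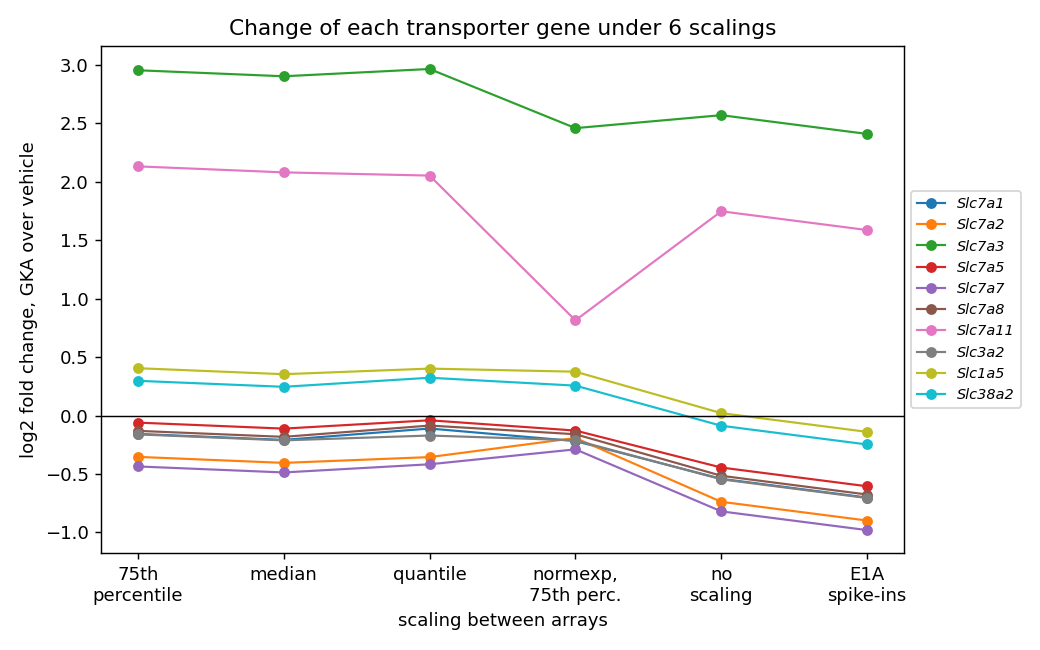
Log2 difference, GKA minus vehicle, of each member under the alternative ways of scaling the arrays, 1 point per setting. Slc7a3 and Slc7a11 stay above 0 under all of them, and Slc1a5 and Slc38a2 cross 0.

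Related genes were taken from 6 lists, whose counts are to be read against the 9.11% of all tested genes called higher and the 8.01% called lower. The lists share genes. Cth is counted in both the amino acid response and the cystine and glutathione lists. Sesn2 is counted in both the amino acid response and the mTORC1 lists. Of the other amino acid carriers, 26 were tested, of which 5 were higher and 4 lower in GKA islets, with a median log2 difference of 0.10. Slc3a1, the heavy chain of cystine and dibasic amino acid transport in kidney, was higher by 1.44 ± 0.12 (limma adjusted p = 0.00518), and Slc6a17, a synaptic vesicle carrier, by 1.09 ± 0.15. Slc6a19, the neutral amino acid carrier of kidney and gut, was lower (-1.18 ± 0.15, limma adjusted p = 0.0127), as was Slc38a7, a lysosomal glutamine carrier (-0.87 ± 0.14). Slc38a1, a sodium-coupled glutamine carrier, was higher (0.71 ± 0.16) and the proline carrier Slc6a20a lower (-0.83 ± 0.14). With normexp, whose offset draws dim probes toward 0, the log2 differences were smaller, at 0.63 for Slc3a1, -0.56 for Slc6a19 and -0.12 for Slc6a20a.

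Of 34 genes of the amino acid response tested, 6 were higher (17.6%) and 5 lower (14.7%), with a median log2 difference of 0.06. Stc2, a secreted glycoprotein, was higher by 2.73 ± 0.19 (limma adjusted p = 0.00385), Cth, which makes cysteine from cystathionine, by 2.05 ± 0.15 (1.03 with normexp), and Psat1, an enzyme of serine synthesis, by 1.07 ± 0.17. The stress transcription regulator Ddit3 was lower (-1.80 ± 0.22, limma adjusted p = 0.0121), as were Nupr1 (-1.39 ± 0.20) and Trib3 (-1.04 ± 0.16). Atf4 itself had a log2 difference of 0.02 (limma adjusted p = 0.936). Array signal reports RNA only, and ATF4 is known to be controlled largely at translation.

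Of the cystine and glutathione list, to which Slc7a11 is functionally closest, 7 of 14 tested genes were higher and 1 was lower, with a median log2 difference of 0.45. Cbs, which acts before Cth in the route to cysteine, was higher by 1.78 ± 0.17 (limma adjusted p = 0.00638), and Hmox1, a haem-degrading enzyme of the oxidative stress response, by 1.49 ± 0.28. Gss, which completes glutathione, was lower (-0.62 ± 0.13). For arginine and polyamine genes, which use what the cationic carriers import, 4 of 15 were higher and 0 were lower. Azin2 (Adc on the array) was higher by 1.60 ± 0.12, Odc1, the rate-limiting enzyme of polyamine synthesis, by 0.96 ± 0.19, and its activator Azin1 by 0.81 ± 0.12.

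Among 15 genes of glutamine and leucine use, 3 were higher and 2 lower, with a median log2 difference of -0.09. The glutaminase gene Gls2 (0.94 ± 0.21) and the branched-chain aminotransferase gene Bcat2 (0.88 ± 0.12) were among those higher. Glul, which makes glutamine, was lower (-1.16 ± 0.14, limma adjusted p = 0.011), and so was the aspartate aminotransferase Got1 (-0.51 ± 0.12). Of 32 genes in the list for amino acid sensing by mTORC1, 1 was higher and 5 lower, with a median log2 difference of -0.20. The list is broad and also holds Mtor itself, Rptor, Rheb, Tsc1 and Tsc2, so not every gene in it is a sensor. Sec13 was higher (0.58 ± 0.11), and Fnip2 (-0.86 ± 0.13), the leucine sensor Sesn2 (-0.75 ± 0.14) and the Rag GTPase Rragd (-0.72 ± 0.13) were lower. Of the 27 related genes chosen by the naming rule, 8 still passed without GKA array 1, 10 without GKA array 2, 18 without vehicle array 1 and 23 without vehicle array 2, and 7 passed in every such fit: Slc3a1, Stc2, Cth, Ddit3, Nupr1, Cbs and Azin2.

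**Figure D4:**
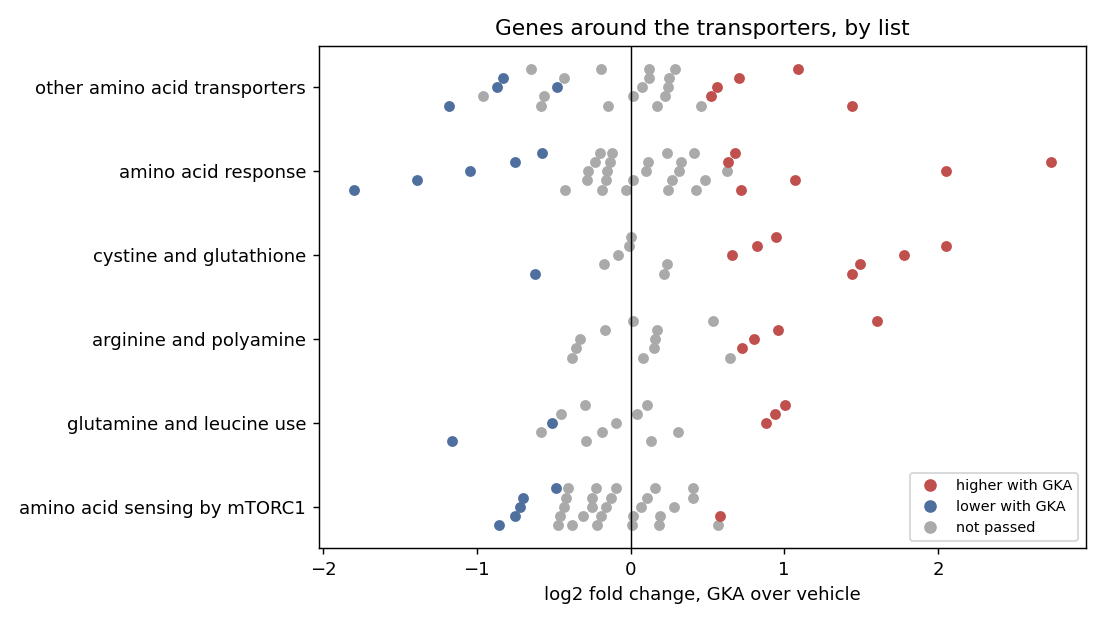
Log2 difference, GKA minus vehicle, of the tested genes in the 6 related lists, 1 point per gene. The cystine and glutathione list has the highest median (0.45) and the mTORC1 list the lowest (-0.20).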

How the data were processed

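Gene expression was measured on 1-colour Agilent arrays in 2 GKA and 2 vehicle samples of mouse islets. The deposited processed intensity is background-subtracted and was made with Agilent Feature Extraction, version 10.7.3.1 per the file headers and 9.1 per the submitters' processing notes. The authors' deposited table gives 1 ratio of GKA over control per probe, from intensities not scaled between arrays, and the probe positions on build mm9. The members and gene lists were chosen with earlier results of these data known.

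Control spots and outlier spots were left out, repeat spots were averaged as log2 values, and each array's 75th percentile was subtracted. A probe was kept if both arrays of either group had it well above background, and a gene is its kept probe with the highest mean signal. Groups were compared with limma 3.58.1 (R 4.3.3), with two-sided p-values adjusted by Benjamini-Hochberg over 17178 genes, and checked on simulated data. An exact permutation test of 2 against 2 arrays cannot give a p below 0.333. Named related genes were up to 3 per direction and list with the largest change among those that passed, and the 3 genes nearest in pattern to the most changed member. A gene that this rule took is not reported here. Replicate numbers were set against each other: deviations of same-numbered arrays correlated at 0.065 across probes, so they were not taken as pairs. A correlation over all probes cannot exclude pairing, and a fit with replicate number as a block is given below. As the files hold no mean signal, normexp (offset 50) used the median signal. The offset shrinks the log2 differences of dim probes by construction. With 4 arrays, precision is limited throughout.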

Additional observations from a re-analysis of the deposited data

How the results depend on the processing

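Over 13 alternatives to the 10 log2 differences, 129 values could be computed: 113 kept their direction and side of the threshold, 12 kept their direction and now passed, and 4 changed sign. Slc7a3 ranged from 2.41 to 3.02 and Slc7a11 from 0.81 to 2.35. In the fits on all 4 arrays, both passed where they were tested. They passed only narrowly with no filter on dim probes (limma adjusted p = 0.0425 for Slc7a3 and 0.0492 for Slc7a11). Requiring signal well above background on all arrays left 1 member higher, since Slc7a11 could not be tested. No scaling gave 6 members lower and spike-in scaling gave 5, with 44.6% and 44.1% of all genes lower. Slc1a5 turned to -0.14 with spike-ins, and Slc38a2 to -0.0870 unscaled and -0.25 with spike-ins. Leaving out 1 array moved Slc7a8 between -0.27 and 0.00821, the value above 0 coming without vehicle array 1. With normexp, 3 members were higher, Slc1a5 joining, and 17.5% of all genes were called higher. The replicate block gave 2 members higher and 0 lower, and 1916 genes called against 2941. Called genes numbered 8404 unscaled, 8010 with spike-ins, 5053 with normexp, 223 with no filter on dim probes, and 530 to 2835 without 1 array. In the 6 lists the counts higher and lower spanned, over the alternatives, 1 to 6 and 0 to 11 for other carriers, 2 to 9 and 0 to 16 for the amino acid response, 2 to 7 and 0 to 3 for cystine and glutathione, 1 to 6 and 0 to 4 for arginine and polyamines, 0 to 4 and 0 to 8 for glutamine and leucine use, and 0 to 4 and 0 to 21 for mTORC1 sensing. The causes were not tested. Dim signal limits Slc7a11, and 2 arrays per group limit all values.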
